A study of Mus musculus with 10 samples.

Results

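The 10 genes described here encode transcription factor subunits of NF-kB and proteins that restrain or modulate them. The genes are Rel, Relb, Nfkb1, Nfkb2, Nfkbia, Nfkbie, Nfkbiz, Nfkbid, Bcl3 and Tnfaip3. They were taken by symbol from a fixed list as 10 of the 57010 gene identifiers in the table. All 10 reached the minimum mean level of 10 normalized reads and so stood among the 12455 genes tested.

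Expression was measured by RNA sequencing in primary BMDM, mouse macrophages grown from bone marrow. Marrow came from wild-type (WT) mice or from mice without WASp (WKO), an activator of branched actin assembly in blood cells, and was kept for 7 days in medium with the macrophage growth factor M-CSF at 20 ng/mL. Confined cells were held for 1 h at a height of 3 µm by silicone (PDMS) micropillars, and 5 ng of total RNA entered each library. There were 2 WT unconfined libraries (replicates 1 and 3), 2 WKO unconfined (1 and 3), 3 WT confined (2, 3 and 6) and 3 WKO confined (1, 2 and 5). The labels give no strain, age or allele. Handling of the unconfined cells in the device is not described, nor is whether replicates are separate cultures or animals, so p-values measure only the spread between these libraries.

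NF-kB is a family of DNA-binding dimers that are held inactive in the cytoplasm by IκB proteins. Signals from receptors for microbial products, cytokines or damage lead the IKK kinase complex to mark IκB for destruction, and the dimers then enter the nucleus and switch on inflammatory genes. IκB genes, other inhibitors and some of the subunit genes are themselves switched on by NF-kB, which gives the pathway negative and positive feedback.

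To show a sequence feature of the members, the stretches of promoter that hold the NF-kB consensus motif of 10 bases are given for the 7 members found in the RefSeq promoter table (GRCm38.p6). Each is written 5′ to 3′ on the strand of the gene, with matches on either strand in capitals, and positions are counted from a RefSeq start site. Overlapping matches in Rel and Nfkb2 form a single run of capitals. Relb, Nfkb1 and Nfkbiz are not shown.
Nfkbia: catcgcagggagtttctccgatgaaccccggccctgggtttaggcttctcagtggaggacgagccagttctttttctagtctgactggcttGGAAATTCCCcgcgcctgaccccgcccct
Tnfaip3: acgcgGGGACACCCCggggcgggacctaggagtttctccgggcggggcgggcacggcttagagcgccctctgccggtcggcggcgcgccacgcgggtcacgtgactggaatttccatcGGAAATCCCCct
Rel: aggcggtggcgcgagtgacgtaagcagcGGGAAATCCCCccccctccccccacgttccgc
Nfkbie: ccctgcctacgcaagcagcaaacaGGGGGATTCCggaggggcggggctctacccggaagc
Nfkbid: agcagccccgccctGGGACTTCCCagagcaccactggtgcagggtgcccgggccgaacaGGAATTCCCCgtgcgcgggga
Nfkb2: gggatcgtcacGGGAATTCCCCccctcggg
Bcl3: gtcggcggcagGGGAAGTCCCgctgcccg

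The Nfkbia stretch is chr12:55492648-55492767, minus strand, and its match lay 29 to 20 bases before the start. In Tnfaip3 (chr10:19015411-19015540, minus strand) matches lay 125 to 116 and 12 to 3 bases before the start. The Rel stretch is chr11:23771030-23771089, minus strand, with matches between 92 and 82 bases before the start. For Nfkbie (chr17:45555570-45555629, plus strand) the match lay 106 to 97 bases before it. The Nfkbid stretch is chr7:30422166-30422245, plus strand, with matches from 226 to 217 and from 181 to 172 bases before the start. In Nfkb2 (chr19:46304687-46304716, plus strand) the run covers bases 39 to 29 before the start, and a further match lay 11 to 2 bases before it. The Bcl3 stretch is chr7:19822736-19822764, minus strand, and its match lay 3 to 12 bases into the transcript. In GENCODE M21 the Nfkbia, Rel and Nfkbie stretches lie outside the annotated gene, those of Tnfaip3 and Nfkbid between its exons, and those of Nfkb2 and Bcl3 in an exon.

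All 7 members in the promoter table held at least 1 match in a window from 250 bases before to 50 after a start, as did 9 of their 12 windows (75.0%). Of all 32851 windows, 1480 (4.51%) held a match, as did 581 (6.18%) of the tested genes present there (9408). Windows of Nfkb2 partly overlap, and a match there was counted in more than 1 window, so the windows are not independent. A match describes the letters and does not show binding.

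The libraries held 13295701 to 19329908 reads, and 3 reads, a detection floor that covers counting error only, correspond to a normalized read count of 2.35 to 3.59. Was, the gene that encodes WASp, lay between 1308 and 1649 in the 5 WT libraries and between 96.9 and 154 in the 5 WKO libraries. All 10 macrophage markers were detected in every library, with sums of 187068 to 322039. WKO confined replicate 5 stood apart in its 12 stromal markers, which summed to 10623, against 3500 and 881 in WKO confined replicates 1 and 2. It also had the highest macrophage marker sum (322039), though only 5 of the 10 macrophage markers were highest there within its group. Its mitochondrial share of 1.96% was the highest in a range from 1.11%, but WT confined replicate 3 was close at 1.89%. Tests of confinement and genotype on the members are therefore also given without WKO confined replicate 5, while correlations use all libraries. In RNA from whole cultures, fewer cells of a type and less RNA per cell cannot be told apart.

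Confined cells held more RNA of 9 of the 10 members than unconfined cells, and the IκB genes Nfkbiz and Nfkbia had the largest folds. Averaged over the genotypes, Nfkbiz rose 30.3-fold, Nfkbia 12.8-fold, Tnfaip3 5.93-fold, Rel 5.05-fold and Nfkbie 5.00-fold (limma, 95% intervals 15.4 to 59.4, 7.63 to 21.6, 3.73 to 9.43, 3.55 to 7.19 and 3.06 to 8.15, with 4 unconfined and 6 confined libraries). Bcl3, Nfkbid, Relb and Nfkb2 rose between 1.61-fold and 2.92-fold. Nfkb1 was the only member that did not pass, at 1.03-fold (0.87 to 1.22). Without WKO confined replicate 5 the folds were 22.8 for Nfkbiz, 10.7 for Nfkbia, 4.87 for Tnfaip3, 4.30 for Rel and 3.99 for Nfkbie, and the 9 members passed. These folds are on the scale log2(normalized read count + 1), and gene positions below are those of GENCODE M21 on GRCm38. The fit shares 1 spread over all groups, so each member has the same SE in WT and in WKO. Passing in only 1 genotype therefore does not show a difference between them.

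**Figure D1:**
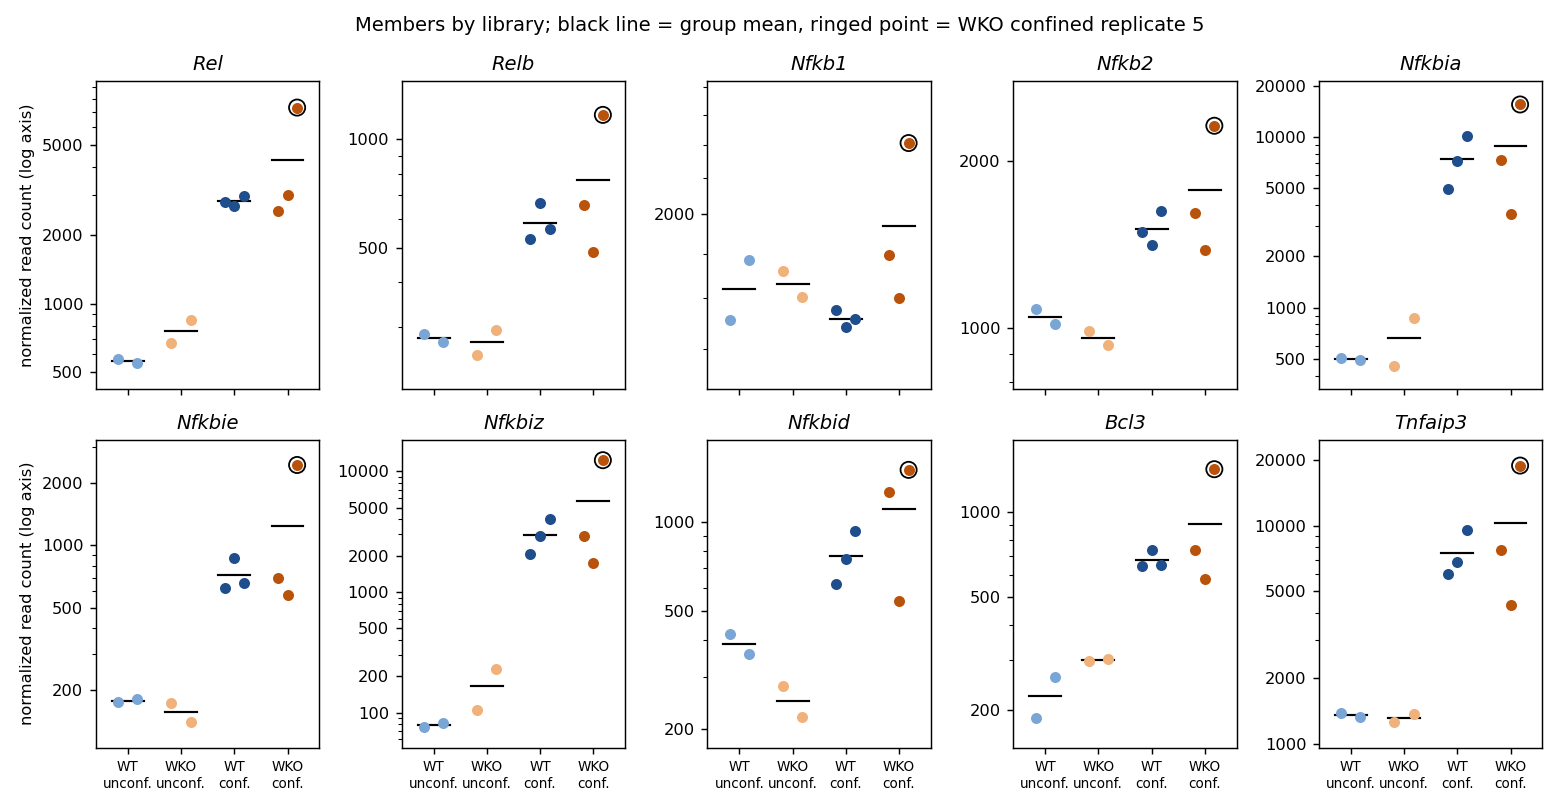
Normalized read count of each member (vertical log axis) in every library by group, with the group mean as a black line and WKO confined replicate 5 ringed. For 9 members all confined libraries lie above the unconfined libraries of their genotype, Nfkb1 is the exception, and the ringed library is the highest in every panel.

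Among the subunits, Rel (chr11:23736847-23770970, minus strand) encodes c-Rel, a subunit with an activation domain that is prominent in blood cells. Its normalized read count was 572 and 549.9 in WT unconfined (replicates 1 and 3), 669 and 851 in WKO unconfined (1 and 3), 2819.65, 2685 and 2983 in WT confined (2, 3 and 6) and 2554, 3013 and 7315 in WKO confined libraries (1, 2 and 5). No confined library overlapped an unconfined one, and the 3 WT confined libraries lay close together. Rel rose by 2.33 on the log2 scale in WT (SE 0.33, limma adjusted p = 0.00558) and by 2.34 in WKO (SE 0.33, limma adjusted p = 0.00409). Without WKO confined replicate 5 the WKO difference was 1.88 (limma adjusted p = 3.38e-05).

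Relb (chr7:19606217-19629438, minus strand) encodes RelB, the partner of p52 in the non-canonical branch of the pathway. It was at 288 and 273 in WT unconfined, 251 and 295 in WKO unconfined, 527, 667.5 and 563 in WT confined and 655, 485 and 1171 in WKO confined libraries, in the order of replicates used for Rel. The confined libraries again lay above all unconfined ones. The log2 difference was 1.05 in WT (SE 0.28), which did not pass (limma adjusted p = 0.127), and in WKO Relb rose by 1.40 (SE 0.28, limma adjusted p = 0.0307, or 1.05 and 0.00941 without replicate 5). The WKO call for Relb ended when all detected genes were tested (limma adjusted p = 0.0504).

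Nfkb2 (chr19:46304320-46312385, plus strand) encodes p100, which acts as an inhibitor until it is processed to the subunit p52. Its values were 1082 and 1017 in WT unconfined, 989 and 935 in WKO unconfined, 1492, 1414 and 1623 in WT confined and 1615, 1385 and 2313 in WKO confined libraries. The groups did not overlap, though the step was the smallest among the 9 members that rose. The log2 difference was 0.52 in WT (SE 0.18, limma adjusted p = 0.238, not passing), and in WKO it rose by 0.85 (SE 0.18, limma adjusted p = 0.0374, or 0.64 and 0.0189 without replicate 5). As for Relb, the WKO call for Nfkb2 ended when all detected genes were tested (limma adjusted p = 0.0602). Nfkb2 shares 531 bases (11.6% of its joined exons) with AC114539.1 and 299 bases (6.52%) with Psd on the opposite strand, and since the use of strand in counting is not given, its count is uncertain to that extent. AC114539.1 had a mean normalized read count of 125 and Psd of 3.95.

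Nfkb1 (chr3:135584655-135691547, minus strand) encodes p105, the precursor of the subunit p50. It was at 1512 and 1769.65 in WT unconfined, 1722 and 1606 in WKO unconfined, 1553, 1483 and 1514 in WT confined and 1793.5, 1600.2 and 2414 in WKO confined libraries. Confined and unconfined libraries overlapped in both genotypes. The log2 difference was -0.11 in WT (SE 0.16, limma adjusted p = 0.838) and 0.20 in WKO (SE 0.16, limma adjusted p = 0.618, or 0.03 and 0.972 without replicate 5). The 95% interval of the average over genotypes ran from -0.20 to 0.29 on the log2 scale, so a rise of the size seen in Nfkb2 (0.68) lay outside it.

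Of the cytoplasmic inhibitors, Nfkbia (chr12:55489410-55492647, minus strand) encodes IκBα, the IκB that is destroyed and made again within each round of canonical signalling. Its values were 512 and 497 in WT unconfined, 459 and 873 in WKO unconfined, 4968, 7216 and 10114 in WT confined and 7366, 3556 and 15490.3 in WKO confined libraries. All 6 confined libraries lay several-fold above the unconfined ones, with the widest spread among WKO confined libraries. Nfkbia rose by 3.82 on the log2 scale in WT (SE 0.49, limma adjusted p = 0.00286) and ranked 13th by fold among all 12455 tested genes. In WKO it rose by 3.55 (SE 0.49, limma adjusted p = 0.00374, rank 27), or by 3.01 without replicate 5 (limma adjusted p = 0.000581).

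Nfkbie (chr17:45555703-45563169, plus strand) encodes IκBε, a slower feedback inhibitor of the same type. It was at 176 and 181 in WT unconfined, 175 and 140.4 in WKO unconfined, 627, 868 and 657 in WT confined and 695, 577 and 2444 in WKO confined libraries. The groups did not overlap, and WKO confined replicate 5 was far above the other confined libraries. The WT log2 difference of 1.99 (SE 0.46) did not pass (limma adjusted p = 0.0684), whereas in WKO Nfkbie rose by 2.66 (SE 0.46, limma adjusted p = 0.0130, or 2.01 and 0.000114 without replicate 5). The difference between these effects was tested below and did not pass.

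The nuclear IκB proteins act on dimers already bound to DNA. Nfkbiz (chr16:55811375-55838899, minus strand) encodes IκBζ, a co-activator of secondary inflammatory genes, and had the largest fold of the members. It was at 76.0 and 81.6 in WT unconfined, 105 and 231 in WKO unconfined, 2062, 2887 and 4042 in WT confined and 2889.5, 1735 and 12379 in WKO confined libraries. Both WKO unconfined libraries lay above both WT unconfined ones, and every confined library lay above every unconfined one. Nfkbiz rose by 5.18 in WT on the log2 scale (SE 0.63, limma adjusted p = 0.00268, rank 9 of 12455 by fold) and by 4.66 in WKO (SE 0.63, limma adjusted p = 0.00350, rank 14), or 3.84 without replicate 5 (limma adjusted p = 7.43e-05).

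Nfkbid (chr7:30421732-30428746, plus strand) encodes IκBNS, which modulates a subset of NF-kB targets. Its values were 419 and 358 in WT unconfined, 279 and 219 in WKO unconfined, 617, 753 and 936 in WT confined and 1268, 542 and 1504 in WKO confined libraries. The WKO libraries were the lower ones before confinement and held the 2 highest values after it. The log2 difference in WT was 0.97 (SE 0.35, limma adjusted p = 0.264), which did not pass, and in WKO Nfkbid rose by 2.03 (SE 0.35, limma adjusted p = 0.0129, or 1.74 and 0.0102 without replicate 5).

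Bcl3 (chr7:19808462-19822770, minus strand) encodes a nuclear IκB that binds p50 and p52 homodimers. It was at 188 and 263 in WT unconfined, 298 and 302 in WKO unconfined, 647, 738 and 652 in WT confined and 735, 580.1 and 1415 in WKO confined libraries. Confined libraries lay above all unconfined ones. Bcl3 rose by 1.60 in WT (SE 0.29, limma adjusted p = 0.0237) and by 1.49 in WKO (SE 0.29, limma adjusted p = 0.0275, or 1.12 and 0.00647 without replicate 5). Relb and Bcl3 both lie on chromosome 7, with 179 kb between them. An antisense gene, Gm16175, covers 161 bases (6.51% of the joined exons) of Bcl3 and is listed at 0 in all libraries.

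Tnfaip3 (chr10:19000910-19015657, minus strand) encodes A20, an enzyme that edits ubiquitin chains and dampens signalling upstream of IKK. It was at 1381 and 1332 in WT unconfined, 1263 and 1372 in WKO unconfined, 6015, 6805 and 9574 in WT confined and 7757, 4325 and 18898 in WKO confined libraries. The 4 unconfined libraries were nearly level and the confined ones lay above them without overlap. Tnfaip3 rose by 2.43 in WT (SE 0.43, limma adjusted p = 0.0212) and by 2.71 in WKO (SE 0.43, limma adjusted p = 0.00908, or 2.14 and 0.000365 without replicate 5).

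**Figure D2:**
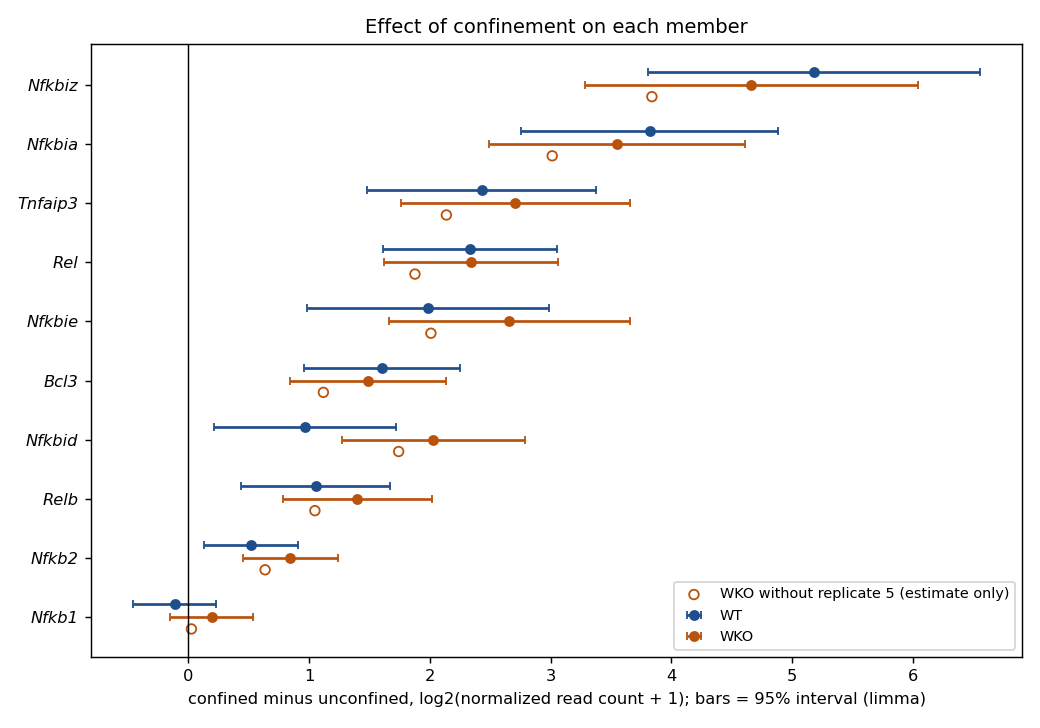
Difference between confined and unconfined libraries for each member on the log2(normalized read count + 1) scale (horizontal axis), with 95% limma intervals for WT and WKO and open circles for WKO without replicate 5. Nfkbiz and Nfkbia lie farthest to the right (5.18 and 3.82 in WT), and both Nfkb1 intervals cross 0.

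By count, 5 of the 10 members passed in WT (Nfkbia, Nfkbiz, Rel, Tnfaip3 and Bcl3), all higher, where 0.891% of all tested genes passed as higher. In WKO 9 passed, all but Nfkb1, with or without replicate 5, where 1.49% of all tested genes passed as higher. In fits of only the libraries compared, the counts turned round, with 9 passing in WT and 0 in WKO. Calls over all tested genes, in either direction, were then 455 in WT and 33 in WKO. The 2 counts therefore do not rank the genotypes. Averaged over the genotypes the same 9 passed, against 4.13% of all tested genes. In each genotype the libraries of 9 members did not overlap, with the confined ones higher, which held for 18.3% of all tested genes in WT and 14.5% in WKO. The median log2 difference of the members was 1.79 in WT and 2.19 in WKO, beside -0.01 over all tested genes in each genotype, and the WKO median was 1.81 without replicate 5.

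The counts within 1 genotype changed with the libraries used. Where 1 of 2 unconfined libraries is left out, the other is assumed to vary like the other groups. In WT no member passed without WT unconfined replicate 1, where calls over all genes fell from 144 to 22, and only Nfkbiz passed without replicate 3 (limma adjusted p = 0.0424, 33 calls over all genes). The estimates themselves were close: without WT unconfined replicate 1 Nfkbia stood at 3.84 in place of 3.82 and Nfkbiz at 5.13 in place of 5.18. In WT 3 passed without any 1 WT confined library (60 to 66 calls over all genes) and 8 without WKO confined replicate 5 (397). In WKO no member passed without WKO unconfined replicate 1 (43 calls over all genes, against 214), and 3 passed (Nfkbia, Nfkbiz and Rel) without replicate 3 (76). There the WKO estimates without replicate 1 were 3.08 for Nfkbia and 4.09 for Nfkbiz. Without a mean-variance trend in the fit, no member passed in either genotype. Averaged over the genotypes, 9 passed under each of these settings.

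Between genes, levels can be compared only per length, here as RPKM, reads per kilobase of the longest coding transcript scaled to library size. In WT unconfined libraries Nfkb1 was the most abundant member, at 27.2 ± 3.2 (SD, n = 2), followed by Nfkbia (21.8 ± 0.30), Tnfaip3 (20.9 ± 0.39) and Nfkb2 (18.6 ± 0.68), and no neighbours in this order overlapped. Nfkbiz was the lowest of the 10, at 1.30 ± 0.07, after Nfkbid (13.0), Relb (8.64), Bcl3 (8.31), Rel (5.12) and Nfkbie (5.00). Relb and Bcl3 overlapped, as did Rel and Nfkbie. The place of Nfkb1 depends on the transcript taken: over its joined exons it ranked 5th, at 9.27.

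After confinement the order changed. In WT confined libraries Nfkbia stood at 303 ± 107 RPKM (SD, n = 3), Tnfaip3 at 109 ± 28 and Nfkbiz, now the third, at 46.9 ± 15.9, and these 3 overlapped neither each other nor the next gene. Below them, Nfkb2 (25.2), Rel (24.4), Nfkbid (24.2), Nfkb1 (23.7), Bcl3 (23.6), Nfkbie (18.9) and Relb (17.0) lay close together, and each overlapped its neighbour. In WKO confined libraries the order began with the same 3 genes, at 355 ± 232, 148.5 ± 103.5 and 86.9 ± 86.4. Across libraries the range of every gene overlapped that of its neighbour, but within each library Nfkbia lay above Tnfaip3 and Tnfaip3 above Nfkbiz. Without replicate 5 the 3 genes kept their order, at 229, 90.5 and 37.2, and Nfkbid (29.4) and Nfkb1 (27.4) came next. WKO unconfined libraries began with Nfkbia (29.7 ± 13.0) and Nfkb1 (28.5 ± 1.5), which overlapped, and also ended with Nfkbiz (2.87 ± 1.52).

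Summed by role on this scale, the RNA of the cytoplasmic inhibitors Nfkbia and Nfkbie overtook that of the 4 subunit genes. The ratio of the first sum to the second was 0.464 and 0.437 in WT unconfined, 0.413 and 0.694 in WKO unconfined, 2.465, 3.547 and 4.625 in WT confined and 3.315, 1.815 and 4.011 in WKO confined libraries. All confined libraries were above 1 and all unconfined ones below it. With joined exons as the length the unconfined range was 0.668 to 1.12 and the confined range 2.489 to 6.345, so the groups stayed apart while 1 unconfined library passed 1. Within the subunit sum the share of Nfkb1 was 42.9% to 48.2% in unconfined and 21.7% to 29.2% in confined libraries, and that of Rel 8.26% to 12.9% and 22.9% to 36.3%. With joined exons the shares of Nfkb1 were 24.5% to 28.6% and 10.1% to 14.7%, and those of Rel 14.4% to 21.6% and 33.8% to 49.3%. The step of each between unconfined and confined libraries had the same direction with either length. WKO confined replicate 5 had the lowest Nfkb1 share and the highest Rel share. Without it the confined ranges were 25.5% to 29.2% for Nfkb1 and 22.9% to 29.4% for Rel. With joined exons they were 12.3% to 14.7% and 33.8% to 41.9%. Rela, which encodes p65, and Nfkbib, which encodes IκBβ, are outside the 10 and not in these sums. The ratio with these genes included was not computed.

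**Figure D3:**
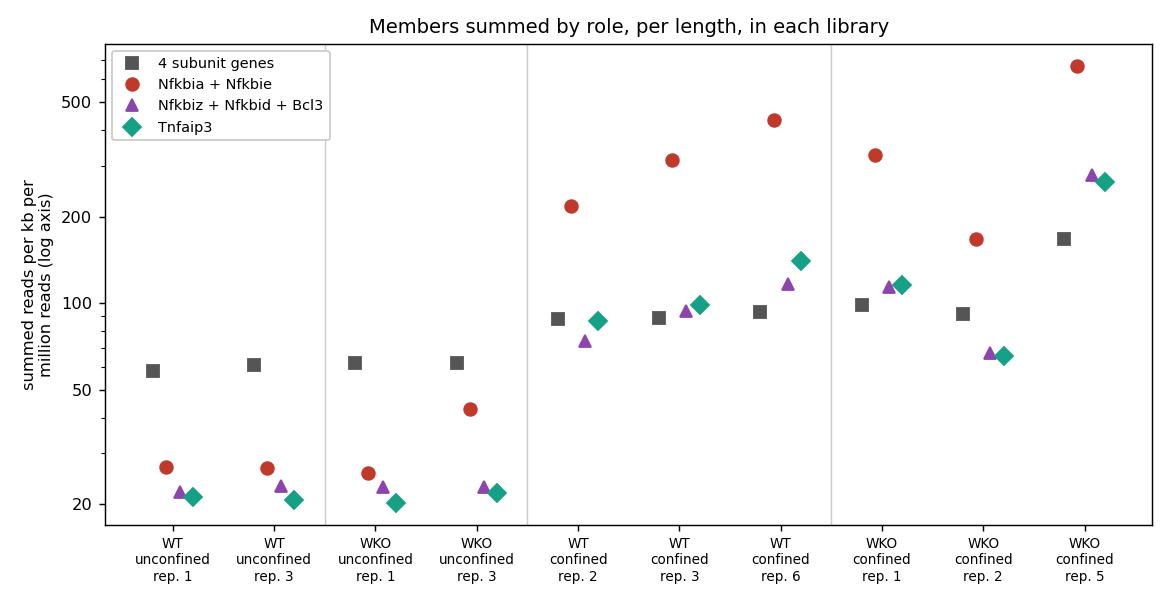
RPKM summed by role (vertical log axis) in each of the 10 libraries: subunit genes, Nfkbia with Nfkbie, the 3 nuclear IκB genes and Tnfaip3. The Nfkbia and Nfkbie sum lies below the subunit sum in all 4 unconfined libraries and above it in all 6 confined ones.

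No member passed between WKO and WT in unconfined cells (limma, 0 of 10, with 0 at an unadjusted p under 0.05, and 0 by edgeR and by DESeq2), where 0.145% of all tested genes passed. Nfkbiz had the largest difference, 0.97 higher on the log2 scale in WKO (95% interval -0.53 to 2.48, limma adjusted p = 0.729). Rel (0.43) and Bcl3 (0.43) were also higher in both WKO libraries than in both WT ones, 3 of 10 members where 22.2% of all tested genes showed this. Nfkbid (-0.65), Nfkbie (-0.19) and Nfkb2 (-0.13) were lower without overlap, 3 of 10 members beside 22.7% of all tested genes. Both shares of members, 3 in 10, stand near the background of genes in general.

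In confined cells the estimates for all 10 members were higher in WKO, between 0.05 (Nfkbia) and 0.48 (Nfkbie) on the log2 scale, and none passed (limma, 0 of 10, and 0 by edgeR and by DESeq2), beside 2.59% of all tested genes. Nfkb1 alone had an unadjusted p under 0.05 (0.33, 95% interval 0.02 to 0.64, limma adjusted p = 0.260). It was also the only member whose WKO confined libraries all lay above the WT confined ones, which held for 10.7% of all tested genes. WKO confined replicate 5 held the highest value of all 10 libraries for 10 of 10 members, as it did for 21.9% of tested genes, and WKO confined replicate 2 was the lowest of its group for 9 of 10, as for 27.4%.

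The direction of this genotype difference turned on WKO confined replicate 5. Without it 8 of the 10 estimates were below 0, from -0.48 for Nfkbia to 0.16 for Nfkb1, and the median over the members was -0.05 in place of 0.32. Without WKO confined replicate 2, Nfkbid passed at 0.86 (limma adjusted p = 0.0485). The 12 stromal markers were all detected in replicate 5 and 11 of them were highest there within the group. Of the 12 neutrophil and progenitor markers none was highest there, and their sum was 7036 in replicate 5 against 22036 and 28307 in replicates 1 and 2. The part of these markers in the members' levels was not tested. The stromal sum was 882 to 1878 in WT unconfined, 195 to 770.4 in WT confined and 2381 to 2752 in WKO unconfined libraries, beside the 3 WKO confined values given above.

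Other marker lists stood as follows. The neutrophil and progenitor sum was 7028 to 10967 in WT unconfined, 25128 to 30308 in WKO unconfined and 2584 to 7994 in WT confined libraries. The 7 B cell markers summed to 815 to 892 in WT unconfined, 4079 to 4427 in WKO unconfined, 414 to 793 in WT confined and 1613 to 5202 in WKO confined libraries. The 7 T and NK cell markers summed to at most 18.2, with Trbc2 and Ncr1 at 0 in all libraries, and the 6 dendritic cell markers to at most 162, with Xcr1 at 0. The part of these lists in the results was not tested.

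Whether confinement acted differently in the 2 genotypes was tested as an interaction. No member passed (limma, adjusted p = 0.999 for each, with 0 of 10 at an unadjusted p under 0.05), and neither did any of the 12455 genes (0%), of which 258 had an unadjusted p under 0.05. edgeR and DESeq2 also passed 0 genes. The largest estimate was that of Nfkbid, a log2 difference between genotypes of 1.06 with a 95% interval from -0.01 to 2.13. Intervals were also wide for other members: -1.77 to 1.23 for Nfkbia, -2.46 to 1.43 for Nfkbiz, -0.74 to 2.09 for Nfkbie and -1.06 to 1.61 for Tnfaip3. For Rel the estimate was 0.01 (-1.01 to 1.03). Without WKO confined replicate 5 the estimate of Nfkbiz was the largest in size, at -1.34, followed by Nfkbia (-0.81) and Nfkbid (0.78), while Nfkbie stood at 0.02 and Rel at -0.45. The median over the members turned from 0.29 to -0.15, and no member passed with or without that library.

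**Figure D4:**
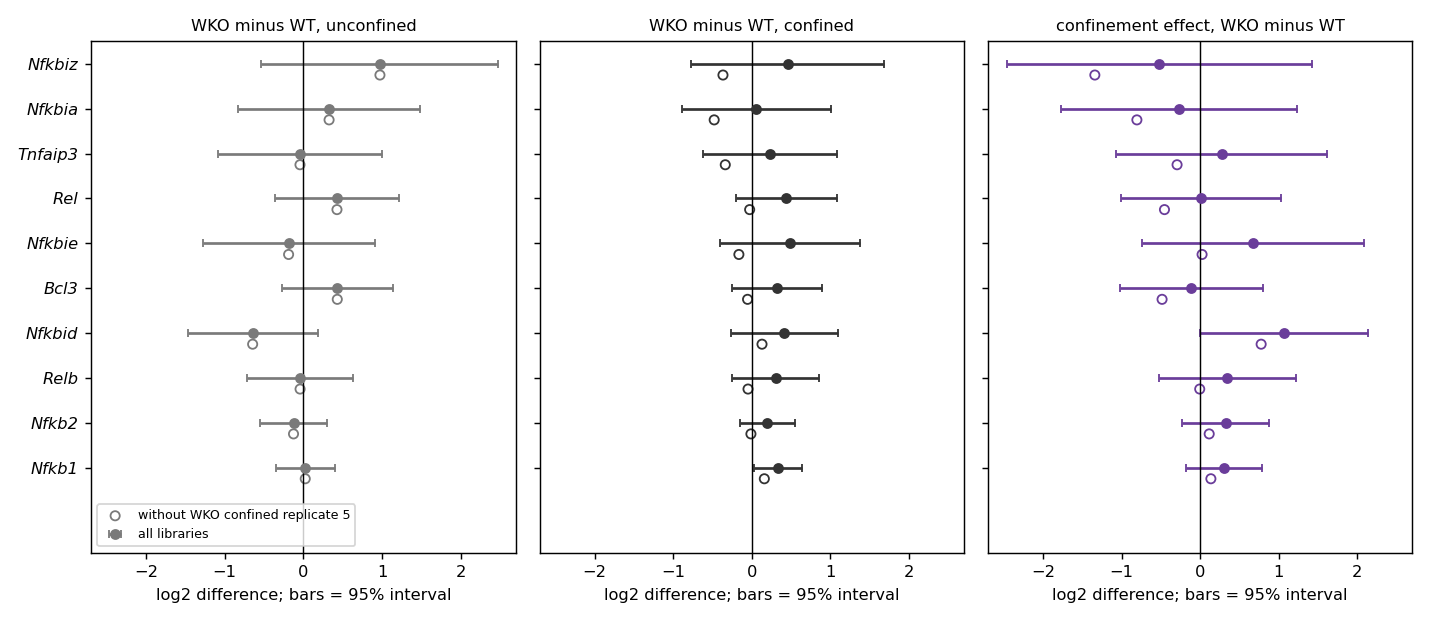
Log2 difference between WKO and WT in unconfined cells (left), in confined cells (middle) and in the effect of confinement (right) for each member, with 95% limma intervals and open circles without WKO confined replicate 5. In the middle panel all 10 filled points are above 0, while 8 of the 10 open circles are below it.

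Across the 10 libraries 9 members followed each other closely. Pearson correlations of log2 values among these 9 ran from 0.847 (Nfkbid with Rel) to 0.993 (Nfkbia with Nfkbiz), whereas Nfkb1 correlated with them at 0.263 to 0.516. The points share the step between unconfined and confined libraries, so these values are a description. They also include WKO confined replicate 5, the highest library for all 10 members. No correlation or most similar gene was recomputed without it, so the size and sign of the Nfkb1 values may rest on that library. Among genes with a mean of at least 50, the profile most like that of Nfkbia was Tnf (r = 0.994, tumour necrosis factor), followed by Cxcl2, a neutrophil chemokine. Nfkbiz was most like Socs3 (r = 0.995), a cytokine signalling inhibitor, and Irf1. Bcl3 was most like Cd83 (r = 0.995) and Tlr2, Rel like Kdm6b (r = 0.990) and Il1b, and Nfkb2 like Marcksl1 (r = 0.992) and Icam1. For Relb it was Marcksl1 (r = 0.982), for Tnfaip3 Ifrd1 (r = 0.987), for Nfkbie Cdc42ep2 (r = 0.992) and for Nfkbid Ier5 (r = 0.976) and Jun. Nfkb1 was most like Rnf180 (r = 0.962), Lpcat2 and Ecm1, none of which is among the 3 genes most like any other member.

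The genes that carry the signal to NF-kB moved little beside the members. Of 28 kinases and adaptors of the pathway none passed in WT or in WKO, and their median log2 difference was -0.08 and 0.06. Averaged over the genotypes, 2 of 28 rose and none fell, beside 4.13% higher and 2.07% lower among all tested genes. These were Birc3, a ubiquitin ligase (1.01, SE 0.18, limma adjusted p = 0.00746), and Traf3, an adaptor that restrains the non-canonical branch (0.60, SE 0.15, limma adjusted p = 0.0377). Without WKO confined replicate 5, 2 of the 28 passed in WT, 1 in WKO and 4 in the average. The IKK genes Ikbkb, Chuk and Ikbkg did not pass, at -0.16, -0.05 and -0.25.

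Among 15 other subunits and inhibitors 1 passed in each genotype and 2 passed in the average, all higher, beside 0.891% (WT), 1.49% (WKO) and 4.13% (average) of all tested genes. Leaving out WKO confined replicate 5, 2 passed in each genotype and 3 in the average. Zc3h12a, which encodes the RNase Regnase-1 that degrades inflammatory transcripts, was at 204 ± 19 in WT unconfined (SD, n = 2), 302 ± 139.5 in WKO unconfined (n = 2), 1650.3 ± 35.7 in WT confined (n = 3) and 2189 ± 862 in WKO confined libraries (n = 3). Its average rise was 2.94 on the log2 scale (limma adjusted p = 2.01e-05). Nfkbib, which encodes IκBβ, rose by 0.91 in the average (SE 0.24, limma adjusted p = 0.0482). Rela did not pass, at 0.33 (limma adjusted p = 0.217).

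Of 35 NF-kB target genes outside the pathway 29 were tested. In WT 9 rose and 1 fell, beside 0.891% and 0.265% of all tested genes, in WKO 13 rose and none fell, beside 1.49% higher, and in the average 17 rose and 1 fell, beside 4.13% and 2.07%. With WKO confined replicate 5 left out, 18 passed in WT, 17 in WKO and 20 in the average, counted in either direction. Their median log2 difference of 1.73 in the average was near that of the members (1.93), beside -0.02 over all tested genes. The largest rises in the average were those of Cxcl1, a neutrophil chemokine (7.13, limma adjusted p = 1.20e-05), Cxcl2 (6.79, limma adjusted p = 2.06e-05), Tnf (6.47, limma adjusted p = 5.02e-05), Il1b (5.52, limma adjusted p = 0.000130) and Ptgs2 (5.09, limma adjusted p = 3.39e-05). Cxcl1 was at 1.90 to 3.84 in WT unconfined libraries, around the detection floor, and at 12.8 to 35.1 in WKO unconfined ones. The size of its rise therefore depends on the pseudocount. Vcam1, an adhesion molecule, fell by 0.81 in the average (limma adjusted p = 0.00419).

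**Figure D5:**
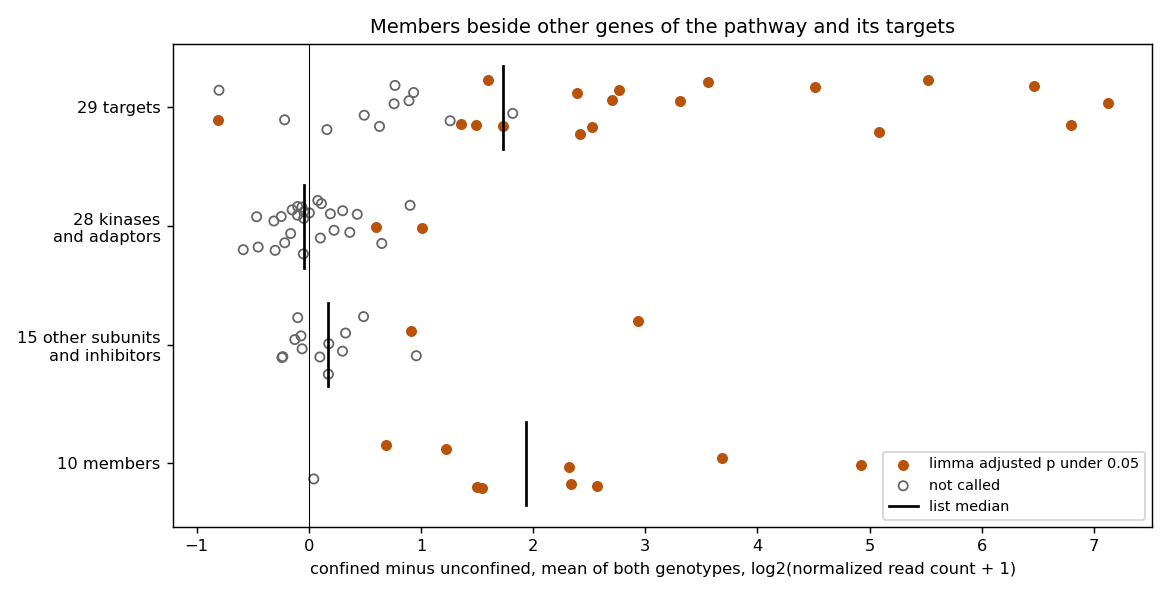
Log2 difference between confined and unconfined libraries, averaged over the genotypes (horizontal axis), for each gene of 4 lists, with filled points past the limma threshold and a black line at the list median. The medians of the members (1.93) and targets (1.73) lie to the right of those of the kinases and adaptors (-0.04) and of the other subunits and inhibitors (0.17).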

How the data were processed

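The deposited values are normalized read counts, 1 signal for each gene in each library. They were whole multiples of the smallest value above 0 in a library (100%, within 1e-06), so whole reads were recovered by division. The submitters' processing notes name FastQC, Trim Galore, STAR, GRCm38 and mm10; the counting tool, annotation and use of strand are not given in the sources used here. Replicate libraries differed beyond sampling noise (chi-square per degree of freedom 7.56 to 78.3) and were counted separately.

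Genes with a mean of at least 10 were tested as log2(value + 1) with limma 3.58.1 in R 4.3.3, with 1 mean per group over all 10 libraries, a mean-variance trend and Benjamini-Hochberg adjustment over all 12455 genes (threshold 0.05). There were 6 contrasts: confinement in WT, in WKO and averaged, genotype in unconfined and in confined cells, and the interaction. edgeR 4.0.16 and DESeq2 1.42.0 on recovered reads were alternatives, beside other pseudocounts, filters, scalings and left-out libraries. The fit was also run on simulated counts with genes raised in WT confined libraries only. The simulation gave all groups the same dispersion, so it does not cover the unequal spread of these groups.

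The members and lists were chosen with earlier results of these data known, so their counts against all genes are a description. The text names the 10 members, the genes most like each by Pearson correlation (up to 3, mean of at least 50) and listed pathway genes that passed, up to 6 by smallest p. The IKK genes, Rela and some targets were chosen after their values were seen. Coordinates are from GENCODE M21 (GRCm38) and lengths from its transcripts. By blastn 2.17.0 no other gene covered 20% or more of a member's transcript at 95% identity or more.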

Additional observations from a re-analysis of the deposited data

How the results depend on the processing

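Averaged over the genotypes, 9 members passed under every alternative run, and a fit of only the libraries compared could not give the average or the interaction. In WT, where 5 passed, the count was 0 without a mean-variance trend, 9 with only the libraries compared, 8 with the replicate number as a block, and 0 to 8 when 1 library was left out. In WKO, where 9 passed, it was 0 without a trend, 0 with only the libraries compared, and 0 to 9 when 1 library was left out. Between genotypes in unconfined cells 0 passed, 0 with any 1 library left out, and 1 (Nfkbiz, limma adjusted p = 0.0438) with the replicate block; in confined cells 0 to 1 passed with 1 library left out. The interaction gave 0 under every alternative run. Over all tested genes, calls in either direction numbered 144 in WT (20 to 455 under the alternatives), 214 in WKO (33 to 1735), 773 in the average (288 to 2220), 18 between genotypes in unconfined cells (4 to 245) and 322 in confined cells (53 to 1948). The cause of these changes was not tested. Deviations of same-numbered libraries from their group means correlated at -0.11 to 0.08. Differently numbered ones ran wider, from -0.20 (WT confined replicate 6 with WKO confined 2) to 0.24 (WT confined 6 with WKO confined 5). In groups of 2 libraries the deviations mirror each other, so these values cannot settle whether the numbers pair libraries. Of 1240 member values recomputed, 55 that had not passed changed sign and none that had passed did. At least 80 reads stood behind every member value.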
